A study of Homo sapiens with 4 samples.

Results

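Collagens, laminins and integrins are the fibers, the basement membrane sheets and the cell-surface anchors of the extracellular matrix. They were followed here in Huh7 cells, a human hepatocellular carcinoma line, with and without a guide against METTL16, an RNA methyltransferase. Members were the rows of the deposited TPM table (transcript abundance scaled to the same total in each library, a level per length of transcript, relative to all transcripts of its library) whose symbol is a collagen chain, a laminin chain or starts with ITGA or ITGB. This rule uses names only, and it took 86 of 18806 rows, of which 44 are collagens, 12 are laminins and 30 carry an integrin name. Of these 30, 26 are integrin subunits, and 4 (ITGB1BP1, ITGB1BP2, ITGB3BP and ITGBL1) are proteins named after a subunit.

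There were 4 libraries, 2 of cells with a non-targeting guide (sgNS) and 2 of cells with the METTL16 guide, called METTL16 KO here, and the question was what METTL16 loss does to RNA levels in liver cancer cells. Cells of both groups came from 1 clone of Huh7 that carries Cas9, received their guide by lentivirus and were selected with hygromycin B, so no uninfected cells were compared. The labels give the genotypes as WT and METTL16 knockdown. The study calls the libraries of a group biological replicates, and whether they came from separate infections is not given in the sources used here, so p-values measure only the spread between these libraries. METTL16 itself read 26.3 and 25.1 TPM in sgNS and 17.6 and 18.8 TPM in METTL16 KO, a fall of 0.50 on the log2 scale (SE 0.06, limma, adjusted p = 2.43e-05), so its RNA was lowered and not lost. The depth of the libraries is unknown, since TPM keeps no read counts.

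In tissue, basement membranes are built from laminin trimers of 1 alpha, 1 beta and 1 gamma chain and from type IV collagen, tied together by nidogen and by the heparan sulfate proteoglycans perlecan and agrin. Fibrillar collagens assemble into fibers, on whose surface the fibril-associated collagens sit. Integrins are pairs of an alpha and a beta subunit that span the membrane. Their alpha subunit largely sets whether a pair binds collagen, laminin or proteins with an RGD motif such as fibronectin and vitronectin. Liver tumor cells make some of these proteins themselves, whereas in liver tissue much of the fibrillar collagen comes from stellate cells.

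The line was checked against markers. All 8 hepatocyte markers were detected, with a summed level of 24536 and 24540 TPM in sgNS and 29147 and 28901 TPM in METTL16 KO. Of these, 7 rose and 1 fell by an adjusted p under 0.05 (limma, described below), where 50.1% and 25.6% of all genes tested did. Among them, AFP rose by 2.54 on the log2 scale and APOA2 fell by 1.90. Of 8 endothelial markers, TEK, KDR and CLEC4M were listed at 0 in every library, and the summed level lay between 4.76 and 5.16 TPM in sgNS and between 3.04 and 3.48 TPM in METTL16 KO, nearly all of it PECAM1. Of 10 fibroblast and stellate markers, DES and POSTN were listed at 0 throughout, THY1 and DCN did not exceed 0.05 TPM, and the summed level, 27.0 to 27.6 TPM in sgNS and 27.3 to 29.2 TPM in METTL16 KO, was mostly PDGFRA. Of 8 leukocyte markers, LYZ made up nearly all of a sum of 1515 and 1558 TPM in sgNS against 920 and 935 TPM in METTL16 KO, while PTPRC stayed at or below 0.48 TPM. The other leukocyte markers tested were higher in METTL16 KO, CD68 with 3.40 and 2.72 TPM in sgNS against 8.86 and 8.57 TPM and CD14 with 1.21 and 0.91 against 1.61 and 1.66 TPM. The part of other cells in the results below was not tested, and in bulk RNA fewer cells of a type and less RNA per cell cannot be told apart.

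Of the 86 members, 33 had a mean of at least 1 TPM over the libraries and were tested: 12 collagens, 5 laminins and 16 integrin rows. Each was compared by limma on log2(TPM + 0.1), with Benjamini-Hochberg adjustment over all 11971 genes tested. On this scale a fold change understates that of genes with low TPM. A call without a fold threshold means an adjusted p under 0.05, and a 2-fold call also needs a log2 fold change of 1 or more in either direction. Over all genes, the median log2 fold change was 0.16, and it became -0.0016 under median-ratio scaling and 0.0106 under quantile normalization, so the values of members are also given relative to it. Groups without overlap are common in this comparison: 10468 genes, 87.4% of those tested, had both METTL16 KO values on 1 side of both sgNS values.

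The collagens split into a larger set that fell and a smaller one that rose. Of the 12 tested, 6 fell at least 2-fold and 1 rose at least 2-fold, where 3.77% of all genes tested fell and 7.70% rose by that rule. By adjusted p alone, 9 fell and 3 rose, against 25.6% and 50.1% of all genes. The median log2 fold change of the 12 was -0.86, or -1.02 relative to that of all genes, but it was -0.34 at a mean of at least 5 TPM and turned to 0.07 when all genes above 0 in a library were tested. Laminins showed 3 falls of at least 2-fold and no rise among 5 tested, with a median of -1.68, and by adjusted p alone 4 fell. At a mean of at least 5 TPM the laminin median was -0.93, and with all genes above 0 tested it turned to 0.003 and 2 laminins rose at least 2-fold. Among the 16 integrin rows, 3 rose and none fell at least 2-fold, while 6 rose and 5 fell by adjusted p alone. Without METTL16 KO replicate 1 the count of integrins that rose at least 2-fold was 1, and without sgNS replicate 1 that of collagens was 2. The integrin median was 0.06, which turned to -0.10 under median-ratio scaling and -0.11 under quantile normalization.

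**Figure D1:**
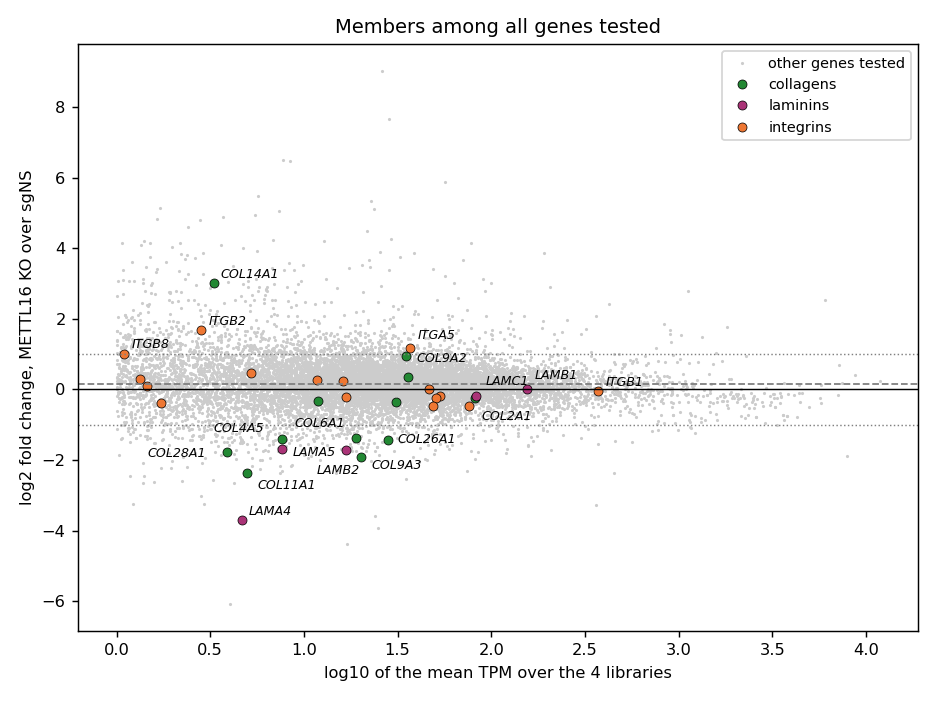
Log2 fold change of METTL16 KO over sgNS (vertical) against the log10 of the mean TPM (horizontal) for each gene tested, with collagens, laminins and integrins colored, a dashed line at the median of all genes (0.16) and dotted lines at 2-fold. LAMA4 and COL11A1 lie lowest among the members and COL14A1 highest, while LAMB1 and ITGB1, the most abundant laminin and integrin, lie near 0.

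Sequences before the RefSeq start sites of these genes are shown for the members with a 2-fold call whose window holds no annotated exon. LAMC1, the gamma chain that LAMA5 pairs with and that moved little, is shown as well. The COL11A1 window lies within the span that GENCODE gives this gene, which reaches chr1:103108872. RefSeq promoters (GRCh38.p14) matched 62 of the 86 members and 23 of the 33 tested, and the 250 bases before the start site were searched on both strands for short motifs. The GC box was searched as GGGCGG. For the CCAAT box its name gives the letters. The TATA box was taken as TATAAA, the E box of basic helix-loop-helix factors as CACGTG, and the site bound by Fos and Jun proteins (AP-1) as TGANTCA, where N is any base. Each sequence reads 5′ to 3′ on the strand of its gene, with matches in capitals. Each of the 23 windows has 0 overlaps between different motifs. Positions are chr20:62367313-62367562 for LAMA5 (minus strand), chr1:183023170-183023419 for LAMC1 (plus strand), chrX:108439588-108439837 for COL4A5 (plus strand), chr1:103108523-103108772 for COL11A1 (minus strand), chr7:101362625-101362874 for COL26A1 (plus strand), chr7:7535874-7536123 for COL28A1 (minus strand) and chr12:54419267-54419516 for ITGA5 (minus strand).
LAMA5: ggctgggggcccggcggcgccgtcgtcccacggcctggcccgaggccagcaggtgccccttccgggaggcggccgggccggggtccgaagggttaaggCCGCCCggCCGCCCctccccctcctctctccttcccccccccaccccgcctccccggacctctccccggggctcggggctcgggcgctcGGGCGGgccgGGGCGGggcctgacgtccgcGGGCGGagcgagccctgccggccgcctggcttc
LAMC1: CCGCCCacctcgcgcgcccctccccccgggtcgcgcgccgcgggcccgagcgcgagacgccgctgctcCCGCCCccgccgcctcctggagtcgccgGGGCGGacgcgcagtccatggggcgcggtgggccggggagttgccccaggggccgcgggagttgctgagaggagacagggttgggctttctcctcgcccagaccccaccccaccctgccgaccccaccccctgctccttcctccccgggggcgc
COL4A5: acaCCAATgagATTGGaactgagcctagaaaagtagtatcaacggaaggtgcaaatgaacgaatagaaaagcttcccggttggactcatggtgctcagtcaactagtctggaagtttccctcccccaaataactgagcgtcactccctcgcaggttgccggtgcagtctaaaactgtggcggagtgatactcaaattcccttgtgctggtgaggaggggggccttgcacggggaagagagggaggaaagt
COL11A1: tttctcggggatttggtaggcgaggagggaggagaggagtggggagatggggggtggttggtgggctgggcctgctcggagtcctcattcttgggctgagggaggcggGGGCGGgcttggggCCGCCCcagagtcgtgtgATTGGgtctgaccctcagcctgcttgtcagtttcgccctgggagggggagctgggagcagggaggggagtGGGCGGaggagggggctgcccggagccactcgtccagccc
COL26A1: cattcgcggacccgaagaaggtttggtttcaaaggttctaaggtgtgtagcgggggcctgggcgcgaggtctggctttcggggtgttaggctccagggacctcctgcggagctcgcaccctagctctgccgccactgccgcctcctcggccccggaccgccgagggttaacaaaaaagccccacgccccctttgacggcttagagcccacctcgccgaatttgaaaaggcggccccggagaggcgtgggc
COL28A1: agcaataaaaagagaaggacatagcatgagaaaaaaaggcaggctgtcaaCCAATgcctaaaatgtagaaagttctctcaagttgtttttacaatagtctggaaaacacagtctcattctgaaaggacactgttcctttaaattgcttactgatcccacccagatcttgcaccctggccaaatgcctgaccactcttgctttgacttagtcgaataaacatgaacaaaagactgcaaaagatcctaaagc
ITGA5: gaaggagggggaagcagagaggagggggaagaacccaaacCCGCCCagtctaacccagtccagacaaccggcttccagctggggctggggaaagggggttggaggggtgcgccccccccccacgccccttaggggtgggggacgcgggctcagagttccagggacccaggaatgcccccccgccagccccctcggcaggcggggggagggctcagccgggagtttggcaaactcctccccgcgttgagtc

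LAMA5 and LAMC1, of which 1 fell over 3-fold and the other little, have windows alike in make-up, with 82.8% and 79.6% G or C and 5 and 3 GC boxes. The windows of COL28A1 (39.6% G or C) and COL4A5 (51.2%) hold no GC box but do hold CCAAT boxes. Of the 23 windows of tested members, 12 hold no annotated exon, and that of ITGB3BP is exon over all 250 bases. A GC box was found in 14 of the 23 windows and in 42.3% of 27303 promoters of the same length. Among members that fell at least 2-fold it was in 3 of 7 windows, and among those with no 2-fold call in 9 of 14. The CCAAT box was in 5 of 23 windows against 33.0% of all promoters, the TATA box in 1 against 11.1% and the E box in 1 against 6.49%, both of them upstream of ITGA6, and the AP-1 letters in 0 against 6.60%. These are matches of letters and not known sites.

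The largest fall among the members was that of a laminin alpha chain. LAMA4, an alpha chain known from vessel and muscle basement membranes, read 8.58 and 8.90 TPM in sgNS and 0.49 and 0.69 TPM in METTL16 KO. LAMA5, the alpha chain of the most widespread epithelial laminins, read 13.4 and 10.1 TPM in sgNS and 3.75 and 3.38 TPM in METTL16 KO, a 3.20-fold fall (log2 fold change -1.68, SE 0.13, adjusted p = 5.94e-07). Neither gene has groups that overlap, and LAMA4 passed the filter only through its sgNS level. LAMA4 fell 12.9-fold (SE 0.17 on the log2 scale, adjusted p = 1.37e-08).

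LAMB2, a beta chain typical of kidney and synaptic basement membranes, read 28.0 and 23.3 TPM in sgNS and 7.96 and 7.40 TPM in METTL16 KO and fell by 1.72 on the log2 scale (SE 0.09, adjusted p = 2.96e-08). LAMB1, the beta chain of laminins in most other tissues, read 158 and 152 TPM in sgNS and 157 and 153 TPM in METTL16 KO, with groups that overlap. Its log2 fold change was 0.003 (adjusted p = 0.947). Under median-ratio scaling it became -0.16 and passed the threshold (adjusted p = 0.0024). Under quantile normalization it was -0.08 (adjusted p = 0.086). LAMC1, the gamma chain shared by most laminins, read 91.2 and 85.6 TPM in sgNS and 79.0 and 76.2 TPM in METTL16 KO. It fell by 0.19 on the log2 scale (SE 0.05, adjusted p = 0.0033), a call lost without METTL16 KO replicate 2 (adjusted p = 0.064). So without such scaling the abundant chains LAMB1 and LAMC1 kept 1.00 and 0.879 of their sgNS level while the less abundant ones fell over 3-fold.

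Below 1 TPM, LAMA3, the alpha chain of epidermal laminin, was at 0.13 and 0.16 TPM in sgNS and 0.56 and 0.64 TPM in METTL16 KO. LAMB3, its beta partner, was at 0.84 and 1.08 TPM in sgNS and 0.32 and 0.50 TPM in METTL16 KO, on the opposite side. Neither gene was tested. LAMA1, LAMA2 and LAMB4 stayed between 0 and 0.14 TPM, and LAMC3 was listed at 0 in every library.

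Summed over the chains of a class, the alpha chains came to 20.6 ± 2.05 TPM (SD, n = 2) in sgNS and 4.78 ± 0.09 TPM in METTL16 KO, a ratio of 0.231. Beta chains summed to 182 ± 7.74 TPM and 163 ± 2.79 TPM, and the gamma chain LAMC1 had 88.4 ± 3.97 TPM and 77.6 ± 1.97 TPM. In both groups the alpha sum was the lowest of these, and the ratio of the alpha sum to LAMC1 was 0.242 and 0.224 in the sgNS libraries but 0.0613 and 0.0618 in those of METTL16 KO. Within the alpha sum, LAMA4 made up 42.6% ± 5.33 in sgNS and 12.4% ± 3.20 in METTL16 KO, and LAMA3 0.711% ± 0.174 and 12.6% ± 1.43. Within the beta sum, the share of LAMB2 was 14.1% ± 1.21 in sgNS and 4.70% ± 0.162 in METTL16 KO. For each of these sums and shares the groups do not overlap, and the exact two-sided permutation p of 0.33 is the smallest that 2 libraries against 2 can give.

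**Figure D2:**
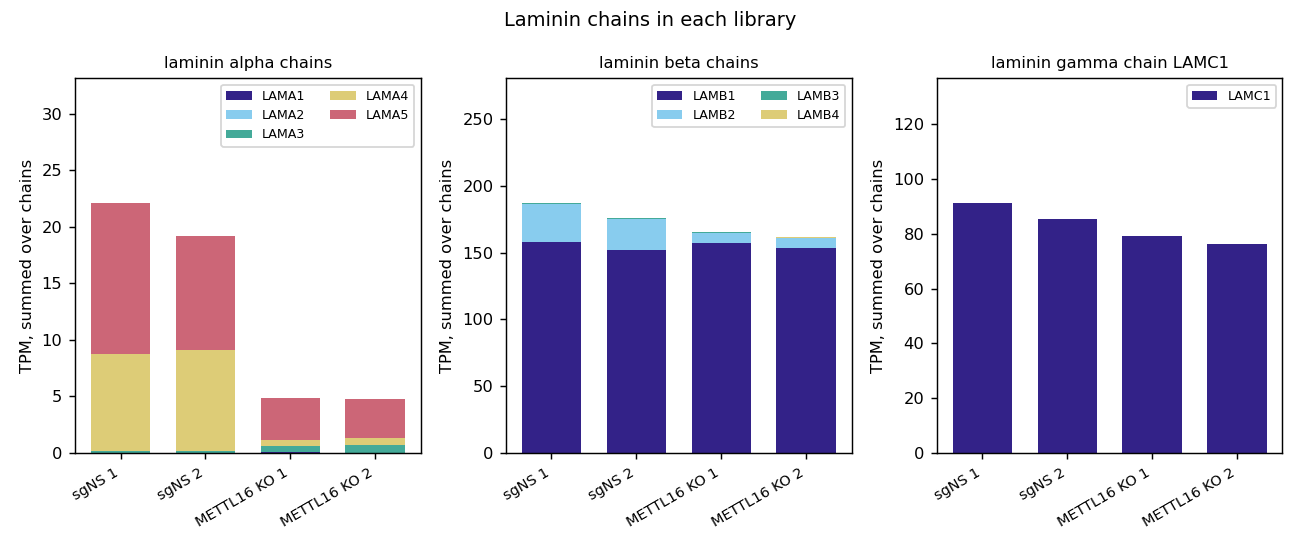
Summed TPM (vertical, from 0) of the laminin alpha and beta chains, stacked by gene, and TPM of the gamma chain LAMC1 in each library. The alpha stack is 22.1 and 19.2 TPM in sgNS and 4.84 and 4.71 TPM in METTL16 KO, whereas LAMB1 and LAMC1 keep nearly all of their height.

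Type IV collagen, the network former of basement membranes, was represented by COL4A5. This X-linked chain read 12.0 and 10.3 TPM in sgNS and 4.43 and 3.87 TPM in METTL16 KO, a 2.63-fold fall (log2 fold change -1.40, SE 0.11, adjusted p = 6.41e-07). COL4A6, with which COL4A5 shares an intergenic stretch of 340 bases (GENCODE, GRCh38), read 0.55 and 0.54 TPM in sgNS and 0.51 and 0.64 TPM in METTL16 KO, so the neighbor below the filter had overlapping groups. The chains of the common type IV network were scarce: COL4A1 did not exceed 0.02 TPM, and COL4A2 was at 0.32 and 0.33 TPM in sgNS and 0.06 and 0.05 TPM in METTL16 KO. COL4A3 and COL4A4 stayed between 0.01 and 0.07 TPM.

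Type VI collagen forms beaded filaments next to basement membranes from several different chains. Only COL6A1 of the 5 chains in the table passed the filter. It read 27.9 and 26.7 TPM in sgNS and 10.9 and 10.0 TPM in METTL16 KO, without overlap, and fell 2.60-fold (log2 fold change -1.38, SE 0.07, adjusted p = 1.90e-08). Its partner chains COL6A2 and COL6A3 reached at most 0.21 and 0.02 TPM. COL18A1, a basement membrane collagen whose end fragment is endostatin, read 38.4 and 31.1 TPM in sgNS and 28.1 and 26.4 TPM in METTL16 KO and fell by 0.34 on the log2 scale (adjusted p = 0.0038). Without METTL16 KO replicate 2 its log2 fold change was -0.30 (adjusted p = 0.074), past the threshold no longer, and without sgNS replicate 1 it was -0.19.

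Among fibrillar collagens, the minor fibril chain changed most. COL11A1, which is built into type II fibrils and sets their diameter, read 8.81 and 7.87 TPM in sgNS and 1.52 and 1.58 TPM in METTL16 KO. It fell 5.11-fold (log2 fold change -2.35, SE 0.12, adjusted p = 3.31e-08). COL2A1, the main fibrillar collagen of cartilage and the collagen with the highest level in these cells, read 95.2 and 82.3 TPM in sgNS and 75.3 and 73.3 TPM in METTL16 KO. Its fall was 0.25 on the log2 scale (SE 0.06, adjusted p = 0.0030), and the call was lost without METTL16 KO replicate 2 (adjusted p = 0.060). Without sgNS replicate 1 the log2 fold change was -0.15. COL2A1 per COL11A1 went from 10.6 ± 0.243 (SD, n = 2) to 48.0 ± 2.24.

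COL27A1, a fibrillar chain of cartilage, read 14.7 and 11.8 TPM in sgNS and 10.6 and 10.3 TPM in METTL16 KO (log2 fold change -0.34, adjusted p = 0.0089). That call was lost without sgNS replicate 1 (log2 fold change -0.18, adjusted p = 0.083) and without either METTL16 KO library (adjusted p = 0.060 and 0.085). COL5A2, a chain that starts type I fibrils, was higher in METTL16 KO, with 32.3 and 31.1 TPM in sgNS and 41.0 and 39.5 TPM in METTL16 KO. It rose by 0.34 on the log2 scale (SE 0.05, adjusted p = 1.14e-04), or 0.18 relative to all genes. Its usual partner COL5A1 did not exceed 0.01 TPM.

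The main chains of scar collagen were near the lower end of detection. COL1A1 read 0.10 and 0.14 TPM in sgNS and 0.80 and 0.48 TPM in METTL16 KO, COL1A2 0.61 and 0.68 against 1.01 and 1.18 TPM, and COL3A1 0.82 and 0.65 against 0.95 and 1.05 TPM. Without overlap, as for 87.4% of the genes tested in either direction, all 3 were higher in METTL16 KO, but they were under the filter and untested. COL24A1, the other fibrillar chain above 0.5 TPM, went the opposite way, with 0.83 and 0.98 TPM in sgNS and 0.43 and 0.38 TPM in METTL16 KO. COL11A2 and COL5A3 stayed at or below 0.14 TPM.

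Type IX collagen sits on the surface of type II fibrils as a trimer of COL9A1, COL9A2 and COL9A3, and its chains moved in opposite directions. COL9A2 read 25.9 and 21.9 TPM in sgNS and 46.0 and 45.8 TPM in METTL16 KO and rose 1.93-fold (log2 fold change 0.95, SE 0.07, adjusted p = 5.53e-07), which is 0.78 relative to all genes. COL9A3 read 34.1 and 29.5 TPM in sgNS and 8.79 and 8.10 TPM in METTL16 KO and fell 3.73-fold (log2 fold change -1.90, SE 0.08, adjusted p = 5.94e-09). COL9A1, under the filter, read 0.55 and 0.65 TPM in sgNS and 0.16 and 0.13 TPM in METTL16 KO. COL9A2 per COL9A3 thereby went from 0.750 ± 0.012 (SD, n = 2) to 5.45 ± 0.298, with exact permutation p = 0.33, the smallest possible.

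COL14A1, a fibril-associated collagen of tendon and skin, had the largest rise of the members. It read 0.70 and 0.60 TPM in sgNS and 6.10 and 5.77 TPM in METTL16 KO, so it passed the filter only through the METTL16 KO libraries, and it rose by 3.01 on the log2 scale (SE 0.17, adjusted p = 4.62e-08). COL16A1, of the same group and untested, read 0.49 and 0.34 TPM in sgNS and 0.99 and 1.15 TPM in METTL16 KO, and COL12A1 0.37 and 0.33 against 0.47 and 0.50 TPM. COL19A1 and COL21A1 did not exceed 0.10 TPM. COL20A1 and COL22A1 were listed at 0 throughout.

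The remaining collagens with a 2-fold call belong to none of these classes. COL26A1, a small secreted collagen first described in testis and ovary, read 43.0 and 38.9 TPM in sgNS and 15.3 and 15.1 TPM in METTL16 KO (log2 fold change -1.42, SE 0.06, adjusted p = 8.18e-09). COL28A1, a collagen with von Willebrand factor A domains, read 6.07 and 6.02 TPM in sgNS and 1.61 and 1.82 TPM in METTL16 KO (log2 fold change -1.76, SE 0.13, adjusted p = 4.59e-07). They fell to 0.374 and 0.295 of their sgNS level, without overlap. COL8A2, a short chain collagen, was untested at 0.49 and 0.46 TPM in sgNS and 0.70 and 0.52 TPM in METTL16 KO. The other collagens, COL7A1, COL8A1, COL10A1, COL15A1, COL6A6 and the membrane-spanning COL17A1, COL23A1 and COL25A1, stayed at or below 0.34 TPM, and COL13A1 and COL6A5 were listed at 0.

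All collagens together summed to 325 ± 29.1 TPM (SD, n = 2) in sgNS and 253 ± 5.77 TPM in METTL16 KO. Replicates differed from each other here in 1 direction. In 12 of 12 tested collagens sgNS replicate 1 was above replicate 2, by a median of 0.20 on the log2 scale, where 53.8% of all genes tested were higher in that library. In METTL16 KO replicate 1 was above replicate 2 in 10 of 12, by a median of 0.05, against 54.6% of all genes. The sgNS offset is about as large as the falls of COL2A1, COL18A1 and COL27A1, and small beside the 2-fold calls.

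**Figure D3:**
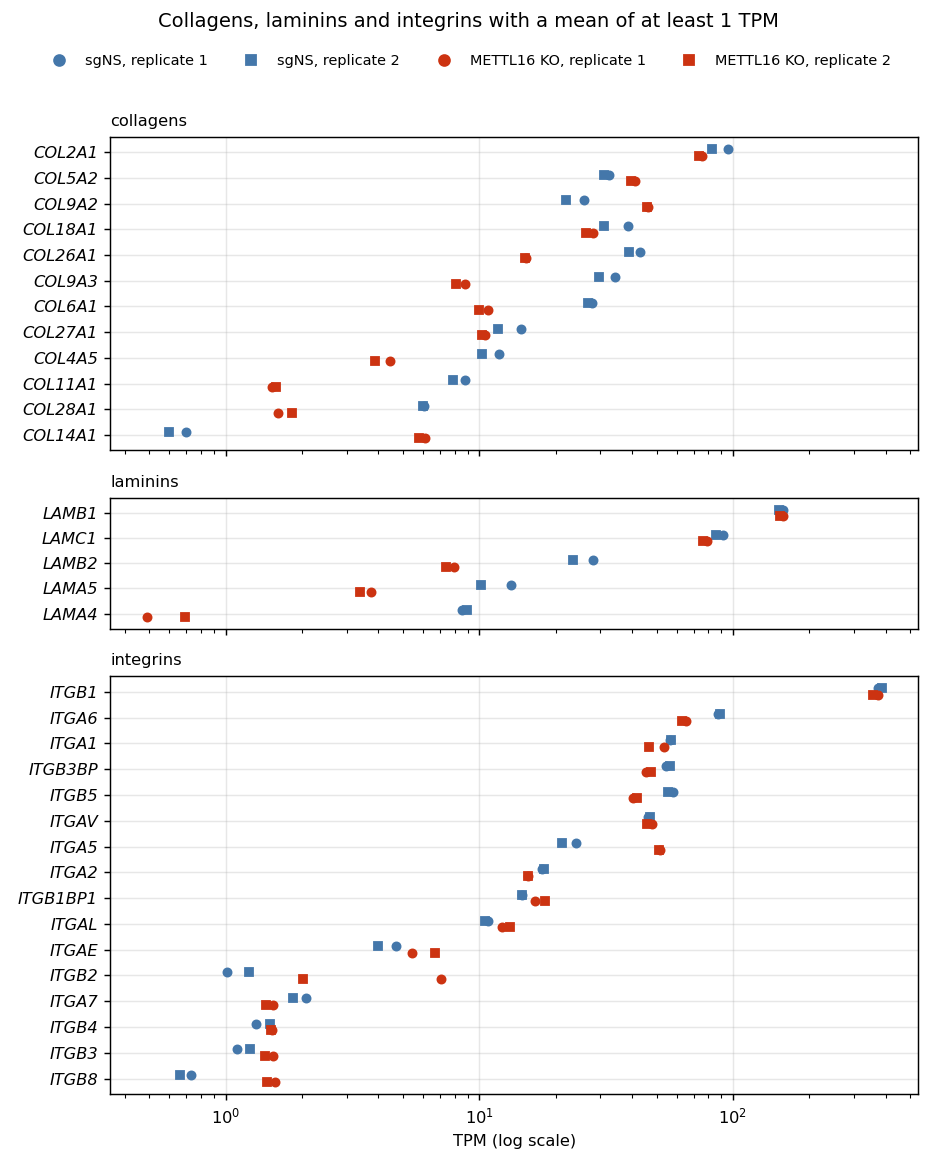
TPM of each tested member (horizontal, log scale) in the 4 libraries, with sgNS in blue and METTL16 KO in red, circles for replicate 1 and squares for replicate 2. The METTL16 KO points of LAMA4 (0.49 and 0.69 TPM) and of COL14A1 (6.10 and 5.77 TPM) lie farthest from their sgNS points, and the METTL16 KO points of ITGB2 (7.08 and 2.02 TPM) lie far from each other.

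Of the integrins, ITGB1, the beta subunit of most matrix receptors, had the highest level of the members and read 372 and 386 TPM in sgNS and 372 and 357 TPM in METTL16 KO, with overlap. Its log2 fold change was -0.06 (SE 0.03, adjusted p = 0.168), and it passed the threshold under 1 of the alternatives run, median-ratio scaling (-0.22, adjusted p = 2.38e-04). The alpha subunits that can pair with it summed to 235 ± 0.375 TPM (SD, n = 2) in sgNS and 232 ± 8.57 TPM in METTL16 KO, with overlap (exact permutation p = 1). ITGB1 per summed alpha partner was 1.61 ± 0.040 and 1.57 ± 0.011.

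Within that sum the order of the alpha subunits changed. ITGA5, the alpha subunit of the fibronectin receptor, read 24.0 and 21.2 TPM in sgNS and 51.6 and 50.9 TPM in METTL16 KO. It rose 2.27-fold (log2 fold change 1.18, SE 0.06, adjusted p = 3.33e-08), or by 1.02 relative to all genes, and its share of the sum went from 9.61% ± 0.842 to 22.1% ± 0.598. ITGA6, the alpha subunit of laminin receptors, read 87.1 and 89.2 TPM in sgNS and 65.2 and 63.1 TPM in METTL16 KO and fell by 0.46 on the log2 scale (SE 0.04, adjusted p = 2.38e-06). Its share went from 37.5% ± 0.572 to 27.7% ± 0.407, and it remained the subunit with the highest level in each library. ITGA7, another laminin-binding subunit, read 2.08 and 1.84 TPM in sgNS and 1.54 and 1.44 TPM in METTL16 KO, without overlap but with an adjusted p of 0.082. It passed the threshold under median-ratio scaling (adjusted p = 0.021), quantile normalization (adjusted p = 0.0050) and without a trend in the fit (adjusted p = 0.012).

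Collagen-binding subunits were slightly lower. ITGA1 read 56.6 and 56.9 TPM in sgNS and 53.3 and 46.8 TPM in METTL16 KO (log2 fold change -0.18, adjusted p = 0.016), and without METTL16 KO replicate 2 the difference was -0.09 (adjusted p = 0.230). The call was also lost without sgNS replicate 2 (adjusted p = 0.053). ITGA2, which lies 30.1 kb from ITGA1 on chromosome 5, read 17.7 and 17.9 TPM in sgNS and 15.5 TPM in both METTL16 KO libraries (log2 fold change -0.20, adjusted p = 0.012). That call was lost without METTL16 KO replicate 1 or 2 (adjusted p = 0.069 and 0.071). ITGAV, the alpha subunit of vitronectin receptors, read 46.4 and 46.9 TPM in sgNS and 47.9 and 45.6 TPM in METTL16 KO. Its log2 fold change of 0.003 (adjusted p = 0.951) became -0.16 under median-ratio scaling and -0.13 under quantile normalization.

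**Figure D4:**
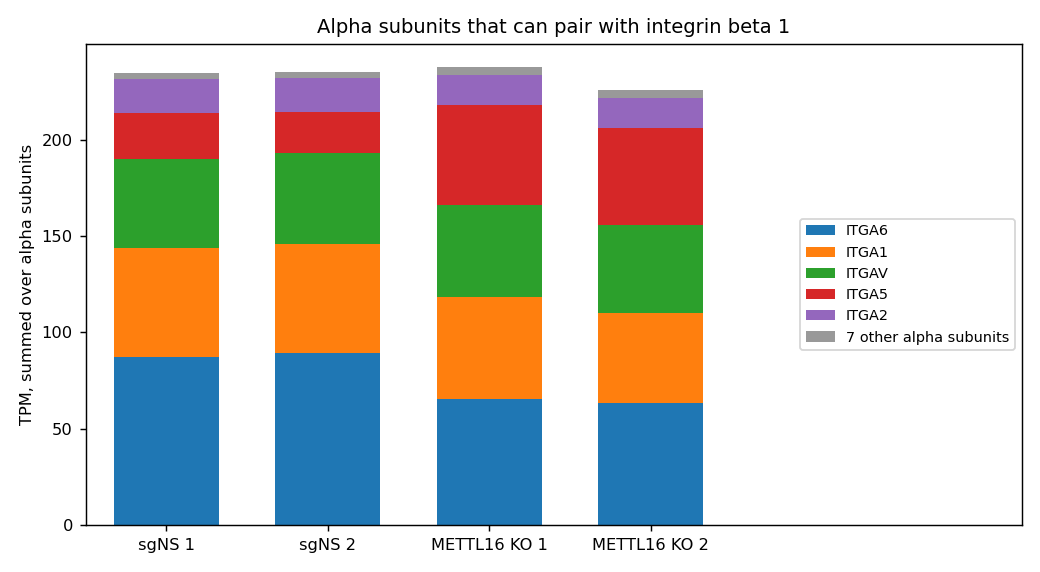
Summed TPM (vertical, from 0) of the alpha subunits that can pair with integrin beta 1 in each library, stacked by gene. The stacks are of like height, 226 to 238 TPM, with ITGA5 rising from 9.61% to 22.1% of them and ITGA6 falling from 37.5% to 27.7% on average.

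Of the beta subunits other than ITGB1, ITGB5, a partner of ITGAV, read 58.2 and 55.5 TPM in sgNS and 40.2 and 41.8 TPM in METTL16 KO. It fell by 0.47 on the log2 scale (SE 0.05, adjusted p = 6.59e-06). ITGB8, another ITGAV partner known for activating latent TGF-beta, was low, with 0.73 and 0.66 TPM in sgNS and 1.56 and 1.45 TPM in METTL16 KO. Its rise of 1.01 (SE 0.23, adjusted p = 0.0021) was 0.86 under median-ratio scaling, 0.58 under quantile normalization and 0.56 with a pseudocount of 1, each under 2-fold. Like COL14A1, it passed the filter only through the METTL16 KO libraries. ITGB3 and ITGB4 lay between 1.11 and 1.54 TPM in all libraries, with log2 fold changes of 0.31 (adjusted p = 0.190, and 0.020 without a trend in the fit) and 0.11 (adjusted p = 0.623). Both turned negative under quantile normalization (-0.10 and -0.27), and ITGB4 also under median-ratio scaling (-0.05).

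ITGB2, the beta subunit of leukocyte integrins, rose by 1.68 on the log2 scale (SE 0.42, adjusted p = 0.0036), but 1 library set this value. It read 1.01 and 1.24 TPM in sgNS, 7.08 TPM in METTL16 KO replicate 1 and 2.02 TPM in replicate 2. Without METTL16 KO replicate 1 the log2 fold change was 0.80, and without replicate 2 it was 2.56. The call was lost without a trend in the fit (adjusted p = 0.060) and when all genes above 0 in a library were tested (adjusted p = 0.069). The pan-leukocyte marker PTPRC was at 0.48 TPM in METTL16 KO replicate 1 and at 0.15 to 0.24 TPM in the other libraries, and its part in the ITGB2 value was not tested. ITGA4, whose product is an alpha subunit of lymphocytes among other cells, was at 1.15 TPM in the same library, 0.62 TPM in METTL16 KO replicate 2 and 0.32 and 0.43 TPM in sgNS.

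The leukocyte alpha subunits with a call were ITGAL, with 10.8 and 10.5 TPM in sgNS and 12.3 and 13.3 TPM in METTL16 KO, and ITGAE, with 4.68 and 3.98 TPM against 5.42 and 6.67 TPM. Their log2 fold changes were 0.26 (adjusted p = 0.0086) and 0.47 (adjusted p = 0.0067). Relative to all genes these are 0.09 and 0.31, and neither call held under median-ratio scaling (adjusted p = 0.270 and 0.054) or quantile normalization (adjusted p = 0.245 and 0.095). Without METTL16 KO replicate 2 both were lost too (adjusted p = 0.096 and 0.102), as was ITGAE without sgNS replicate 2 (adjusted p = 0.057). ITGAM and ITGAX stayed at or below 0.24 TPM and ITGAD was listed at 0.

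Beside ITGA4, the untested subunits above 0.5 TPM were ITGA3, a laminin-binding subunit, with 0.36 and 0.58 TPM in sgNS and 0.80 and 0.82 TPM in METTL16 KO, and ITGA9, with 0.33 and 0.24 against 0.81 and 0.90 TPM. Both had higher values in METTL16 KO without overlap, which 87.4% of the genes tested lacked too, in either direction. ITGA2B, ITGA10, ITGA11, ITGB6 and ITGB7 stayed at or below 0.42 TPM, and ITGA8 was listed at 0. Of the rows that are no subunits, ITGB3BP, a centromere protein, read 54.5 and 56.3 TPM in sgNS and 45.5 and 47.6 TPM in METTL16 KO and fell by 0.25 on the log2 scale (adjusted p = 6.23e-04). ITGB1BP1, an adaptor that binds the ITGB1 tail, read 14.8 and 14.7 TPM in sgNS and 16.6 and 18.2 TPM in METTL16 KO. Its log2 fold change of 0.24 (adjusted p = 0.0090) was 0.07 under median-ratio scaling (adjusted p = 0.359), 0.05 under quantile normalization (adjusted p = 0.560) and 0.17 without METTL16 KO replicate 2 (adjusted p = 0.118). ITGB1BP2 ranged from 0 to 0.54 TPM and ITGBL1 from 0 to 0.02 TPM.

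**Figure D5:**
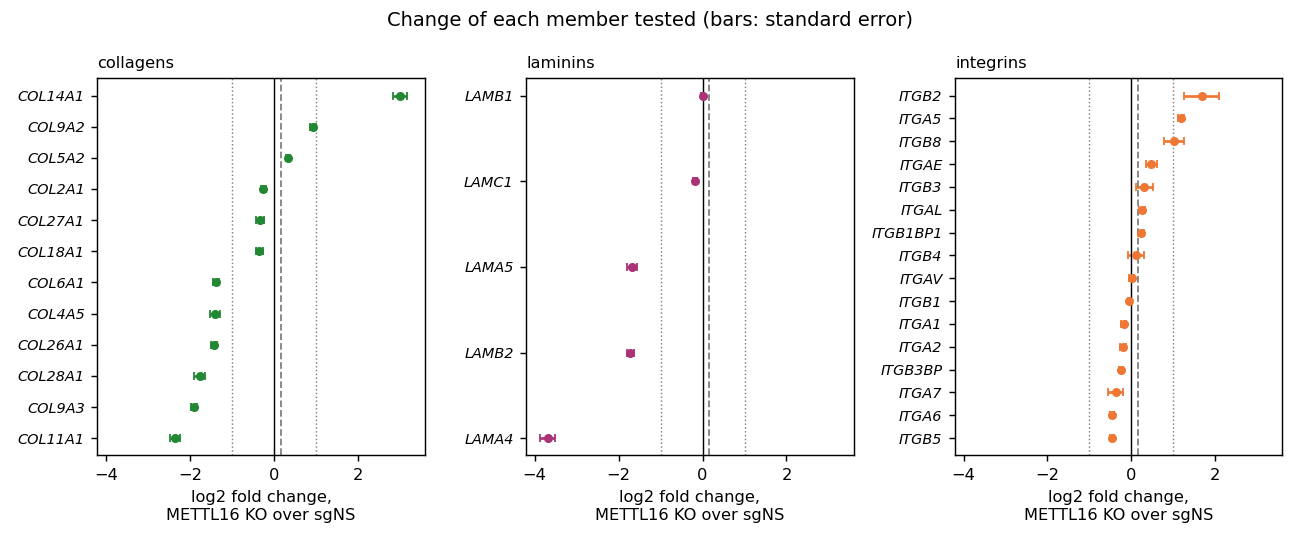
Log2 fold change of METTL16 KO over sgNS (horizontal, bars show the SE of the limma fit) for the 33 members tested, by family, with a dashed line at the median of all genes (0.16) and dotted lines at 2-fold. The 6 collagens and 3 laminins left of the lower dotted line contrast with the integrins, none of which lies there.

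Some members that are neighbors on a chromosome differed in level. Of 14 pairs within 100 kb of each other, 8 had neither gene past the filter. In 5 pairs 1 gene passed and the other did not, among them LAMB1 and LAMB4, COL6A1 and COL6A2, COL5A2 and COL3A1, and COL4A5 and COL4A6. ITGA1 and ITGA2 were the 1 pair with both genes tested. The 13 members with a 2-fold call had 26 nearest tested genes on either side, whose log2 fold changes ranged from -1.32 to 1.47. Of these, 3 had a 2-fold call, which 3.77% (lower) and 7.70% (higher) of all genes had. In the direction of the member were 2, OLFM3 beside COL11A1 at a distance of 880 kb and ZNF385A beside ITGA5 at 3.96 kb. In the opposite direction was DEPTOR, beside COL14A1 at 8.86 kb, with a log2 fold change of -1.16.

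Laminins and type IV collagen bind other basement membrane proteins, and of 15 such partners 11 were tested. Of these, 6 fell and 1 rose at least 2-fold (3.77% and 7.70% of all genes), with a median log2 fold change of -1.09. AGRN, encoding agrin, which binds laminin and dystroglycan, read 28.0 and 22.3 TPM in sgNS and 5.29 and 4.85 TPM in METTL16 KO and fell by 2.28 on the log2 scale (SE 0.10, adjusted p = 1.07e-08). HSPG2, encoding perlecan, read 10.1 and 8.67 TPM in sgNS and 2.31 and 2.22 TPM in METTL16 KO and fell by 2.00 (SE 0.12, adjusted p = 6.90e-08). NID1, encoding nidogen, which links LAMC1 to type IV collagen, read 265 and 250 TPM in sgNS and 120 and 121 TPM in METTL16 KO and fell by 1.09 (SE 0.04, adjusted p = 1.38e-09). In each of these 3 the groups lie far apart, by over 2-fold. FREM1 fell by 2.02, whereas SPARC, a collagen-binding protein, rose by 1.80 and FRAS1 by 0.99. SPARC, the 1 gene with a 2-fold rise, passed the filter only through METTL16 KO. It read 0.40 and 0.57 TPM in sgNS and 1.92 and 1.90 TPM in METTL16 KO. Among the 6 genes with a 2-fold fall, FREM1 and PAPLN passed only through sgNS, and so did NTN4, which had no 2-fold call. PAPLN read 1.87 and 1.63 TPM in sgNS and 0.65 and 0.76 TPM in METTL16 KO.

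Receptors other than integrins were mixed. Of 14 tested, 1 fell and none rose at least 2-fold (3.77% and 7.70% of all genes), and 6 fell and 4 rose by adjusted p alone (25.6% and 50.1%), with a median of -0.03. The gene with the 2-fold fall was BCAM, whose product binds laminins that contain LAMA5. It read 259 and 230 TPM in sgNS and 90.6 and 86.4 TPM in METTL16 KO (log2 fold change -1.46, SE 0.05, adjusted p = 1.85e-09), without overlap. The syndecans SDC1 and SDC3 fell by 0.77 and 0.48, while SDC4 rose by 0.82. The tetraspanin CD9 rose by 0.84 and the collagen receptor DDR2 by 0.74, from 0.84 and 0.83 TPM to 1.41 and 1.51 TPM, so that it passed the filter only through METTL16 KO.

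Genes that process collagen moved both ways. Of 21 tested, 11 fell and 8 rose by adjusted p alone, against 25.6% and 50.1% of all genes, and 5 fell and 2 rose at least 2-fold, against 3.77% and 7.70%, with a median of -0.30. PLOD3, which hydroxylates and glycosylates collagen lysines, read 127 and 114 TPM in sgNS and 34.2 and 37.3 TPM in METTL16 KO (log2 fold change -1.75, SE 0.06, adjusted p = 1.20e-09). P3H3, a prolyl hydroxylase of collagen, fell by 1.72, and PCOLCE2, which enhances the cleavage of procollagen ends, by 1.56. Rises were found in the prolyl hydroxylase P3H2 (1.88), the crosslinking enzyme LOXL4 (1.62) and the collagen chaperone SERPINH1 (0.35). So the members of 1 enzyme family, P3H2 and P3H3, moved in opposite directions.

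Other matrix proteins outside these families, ligands of integrins among them, were counted next. Of 15 tested, 9 rose and 5 fell by adjusted p alone, where 50.1% and 25.6% of all genes did, and 5 rose and 2 fell at least 2-fold, where 7.70% and 3.77% did, with a median of 0.32. Vitronectin (VTN), a liver-made ligand of ITGAV pairs, read 453 and 452 TPM in sgNS and 1371 and 1330 TPM in METTL16 KO (log2 fold change 1.58, SE 0.03, adjusted p = 1.20e-11). The ligand of ITGA5, fibronectin (FN1), read 401 and 386 TPM in sgNS and 395 and 380 TPM in METTL16 KO, with overlap (adjusted p = 0.588). NPNT, a ligand of the ITGA8 pair, rose by 1.80 and CTGF by 1.75, while SPP1, encoding osteopontin, fell by 1.96, THBS4 by 1.63 and THBS3 by 0.98.

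Adaptors that tie integrin tails to actin had a median of 0.17, that of all genes. Of 29 tested, 15 rose and 8 fell by adjusted p alone (50.1% and 25.6% of all genes), and 2 rose and 2 fell at least 2-fold (7.70% and 3.77%). PARVB, encoding a parvin of the complex with ILK, fell by 1.38 and the kindlin FERMT1 by 1.08, and the kinase SRC fell by 0.61. Rises were found in LIMS2 (1.24), which is a PINCH protein of the same complex, and in vinculin (VCL, 0.90). LIMS2 passed the filter only through METTL16 KO, with 0.71 and 0.61 TPM in sgNS and 2.04 and 1.39 TPM in METTL16 KO.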

How the data were processed

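RNA of 2 sgNS and 2 METTL16 KO libraries of Huh7 cells was compared. The authors deposited a TPM value per gene symbol and library. The study's methods call this unit RPKM, but each library sums to 1000000. To make the values, the authors used Cutadapt for trimming, STAR for mapping to GRCh38 and RSEM for quantification. Their versions are not given in the sources used here. One label names a ribosomal RNA depletion and another a stranded mRNA kit.

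Genes with a mean of at least 1 TPM were tested on log2(TPM + 0.1) with limma 3.58.1 (lmFit, eBayes with trend, R 4.3.3), without a block, with Benjamini-Hochberg adjustment. The script was tested on simulated data. The replicate numbers do not pair the libraries (correlation of deviations -0.0445). Members, lists and tests were chosen with earlier results of these data known. All tested members, members under 1 TPM with a library at 0.5 TPM or more, and up to 3 genes per list and direction are named with values, along with METTL16 and partners a result turns on, and a few genes of these lists are not reported here. Sums were compared by an exact permutation test. TPM keeps no depth, so no counting interval was given. Alternatives were pseudocounts, filters, scalings, a fit without trend, a replicate block and leaving out each library. Promoters came from RefSeq and positions from GENCODE (GRCh38).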

Additional observations from a re-analysis of the deposited data

How the results depend on the processing

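Of the counts and medians under these alternatives, 96 stayed within 1.5 times (counts) or 1 SD between libraries (medians), 22 moved further and 5 turned in sign. Of the values of single genes, 355 kept their sign and their side of the adjusted p threshold whatever their size. Another 28 lost and 5 gained a call with their sign kept, and 11 turned in sign. Of the sign turns, those of LAMB1 under median-ratio scaling and of ITGAV under median-ratio scaling and quantile normalization gained a call too. With all genes above 0 in at least 1 library, 4 collagens, 2 laminins and 3 integrins rose at least 2-fold and 1 integrin fell, and the medians were 0.0688 (collagens), 0.003 (laminins) and 0.1203 (integrins), since chains near 0 enter. With a mean of at least 5 TPM, 0 collagens and 1 integrin rose at least 2-fold, and the medians were -0.3423, -0.933 and -0.0549, since fewer genes enter. At 1.5-fold 2 collagens rose. With a pseudocount of 1 the laminin median was -1.47. Median-ratio scaling gave medians of -1.0265, -1.8424 and -0.1038 and quantile normalization -1.0335, -1.8826 and -0.1136, since both lower all values. Under these 2 scalings ITGAV was at -0.1618 and -0.1281, ITGB4 at -0.0458 and -0.2673 and LAMB1 at -0.1626 and -0.076, and ITGB3 at -0.0991 under quantile normalization.

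Leaving out 1 library at a time gave 1 to 2 rising collagens, 1 to 3 rising integrins (1 without METTL16 KO replicate 1) and medians of -0.953 to -0.7391 (collagens), -1.8526 to -1.4799 (laminins) and 0.0085 to 0.1041 (integrins). It put ITGAV between -0.0318 and 0.0387 and LAMB1 between -0.0273 and 0.0332. Without a trend in the fit, COL18A1, COL27A1 and ITGA1 lost their calls (adjusted p up to 0.087). A lone library is then assumed to vary like the other group. Same-numbered libraries are linked here only by that number. With a replicate block 6 collagens and 3 laminins fell and 1 collagen and 3 integrins rose at least 2-fold, the same counts. With 2 libraries a group and unknown depth, small differences and members under 1 TPM could not be judged.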
